A study of Mus musculus with 2 samples.

Results

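Digestive and secretory genes of pancreatic acinar cells were examined in RNA labelled as jejunum, the part of the small intestine that follows the duodenum. They were 10 genes, each read by 1 named probe set of the 22690 on the array: the fat-digesting pair Clps and Pnliprp2, the serine protease genes Cela3b, Try4, 2210010C04Rik and Klk1, the ribonuclease gene Rnase1, and the secreted proteins Zg16, Reg1 and Dmbt1. The RNA came from male C57BL/6J mice given either AIN76, labelled as regular chow, or a feed with 20% glucose (HGD). The diets ran over 4 weeks, after 2 weeks of acclimation from an age of 4 weeks. The mice were 10 weeks old at the end, the labels give no genotype or other agent, and each diet is represented by 1 array. The sources used here do not say how many mice were pooled on an array. The genes were selected on the measured signals of these arrays, which were far lower on the high-glucose array, so the differences below describe 1 pair of arrays. They have no replicate error, no test was possible, and diet cannot be told apart from variation between animals, dissections or hybridisations.

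Acinar cells of the pancreas make digestive enzymes, largely as inactive precursors, store them in zymogen granules and release them through the pancreatic duct into the duodenum when a meal arrives. The transcription factor complex PTF1, whose pancreatic form joins the basic helix-loop-helix factor PTF1A to the RBPJ-like factor RBPJL, drives many of these genes. In rodents the mix of enzymes that the pancreas makes is known to adapt to the fat, protein and starch in the diet. Some of the 10 genes are also known outside the pancreas: Zg16 in goblet cells, Dmbt1 in gut epithelium, and Klk1 in salivary gland and kidney.

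The promoters of 2210010C04Rik, Try4, Cela3b and Reg1 are shown because these genes differed most between the arrays among those with a matched promoter and a signal above the floor on both, and in the same direction. The sequences are RefSeq's, on build GRCm38.p6, and run from 250 bases before to 50 after the gene start, 5′ to 3′ on the gene's strand. RefSeq promoter sequences were matched for 7 of the 10 genes. Capitals mark 4 motifs on either strand: CACCTG, the E-box form of PTF1 sites; TTCCCA, the RBPJ core; AAGGTCA, a site of the nuclear receptor NR5A2; and TATAAA, the TATA box.
2210010C04Rik (chr6:41035460-41035759, minus strand): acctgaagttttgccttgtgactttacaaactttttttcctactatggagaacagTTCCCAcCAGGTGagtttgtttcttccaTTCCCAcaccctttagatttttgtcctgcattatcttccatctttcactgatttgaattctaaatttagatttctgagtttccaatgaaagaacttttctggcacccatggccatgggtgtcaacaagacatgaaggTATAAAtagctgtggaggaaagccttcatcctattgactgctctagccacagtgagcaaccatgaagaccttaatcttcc
Try4 (chr6:41302022-41302321, plus strand): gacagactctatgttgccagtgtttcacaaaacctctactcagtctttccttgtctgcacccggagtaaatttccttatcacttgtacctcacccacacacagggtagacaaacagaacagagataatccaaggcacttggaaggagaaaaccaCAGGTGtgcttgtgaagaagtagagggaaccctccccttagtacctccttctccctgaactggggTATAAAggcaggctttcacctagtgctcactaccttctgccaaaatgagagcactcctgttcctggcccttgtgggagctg
Cela3b (chr4:137430471-137430770, minus strand): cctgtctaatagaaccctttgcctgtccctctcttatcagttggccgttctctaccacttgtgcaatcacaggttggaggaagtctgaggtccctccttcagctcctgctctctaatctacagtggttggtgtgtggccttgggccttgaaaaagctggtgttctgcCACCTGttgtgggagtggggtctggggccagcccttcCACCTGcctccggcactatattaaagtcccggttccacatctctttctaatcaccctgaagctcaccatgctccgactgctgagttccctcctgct
Reg1 (chr6:78425733-78426032, plus strand): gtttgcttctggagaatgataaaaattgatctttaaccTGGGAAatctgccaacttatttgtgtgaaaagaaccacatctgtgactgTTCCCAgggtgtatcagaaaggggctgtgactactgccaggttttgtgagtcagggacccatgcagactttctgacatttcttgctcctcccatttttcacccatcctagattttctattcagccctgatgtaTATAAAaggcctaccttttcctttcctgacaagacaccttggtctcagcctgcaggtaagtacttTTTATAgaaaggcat

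In 2210010C04Rik, a gene of the trypsinogen family, a TTCCCA starting at position -195 lies beside an E-box, read as CAGGTG on the printed strand, starting at -188, and another TTCCCA starts at -167. Cela3b, which encodes an elastase-type protease, holds CACCTG at -83 and at -46 and no exact TTCCCA. The TATAAA of 2210010C04Rik and Reg1 starts at -30, and that of Try4 at -31; Reg1 holds another on the opposite strand, printed as TTTATA, after its start. Among the 7 matched promoters, 5 hold CACCTG against 20.2% of all 32851 promoters of the same length, and 4 hold TTCCCA against 25.6%. Both motifs occur in 2 of the 7, 2210010C04Rik and Klk1, against 5.27% of all promoters. TATAAA is in 3 of 7 against 13.6%, AAGGTCA only in Klk1 (1 of 7) against 4.72%, and the general E-box CANNTG, which includes CACCTG, in 6 of 7 against 72.3%. These matches describe letters in a short window and say nothing about binding.

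The value for each gene is its MAS5 signal, a linear intensity in arbitrary units that summarises the probes of a set. The arrays were not on a common level: over all probe sets the median was 13.1 for control and 7.9 for high glucose. Probe sets in the upper part by mean log2 signal, from the median upward, were called expressed, which left 11313. Their median log2 ratio of high-glucose over control was -0.97, called the shift here, and ratios are given as relative log2 ratios, measured from that shift. Values below 2.95, which is the average 25th percentile of the pair of arrays, were raised to this floor, so a ratio that meets the floor is a bound. All 10 genes counted as expressed, but 5 of them, Clps, Reg1, Dmbt1, Klk1 and Pnliprp2, lay below the median of the high-glucose array and passed through their control signal, and the last 2 of these were under the floor there.

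The labelled tissue was set against chosen lists of marker genes, as far as the authors' comparison table names them. Paneth cell genes mark the crypts of the small intestine. Of 6 that are both listed and named, 0 counted as expressed. Their control and high-glucose signals were 14.0 and 5.0 for Pla2g2a, 8.7 and 9.9 for Defa29, 5.4 and 4.6 for Lyz1, 4.3 and 0.2 for Defa5, 1.6 and 1.5 for Mmp7 and 0.2 and 0.3 for Itln1, the last 2 under the floor on both arrays. Defcr-rs10, a further Paneth cell gene that is named but not on the list, counted as expressed, at a relative log2 ratio of 1.77. Of 4 named goblet cell genes, Guca2a and Spink4 lay under the floor on both arrays, whereas Tff3 (50.4 and 25.7) and Zg16 counted as expressed. All 4 named genes of a liver list lay above the 90th percentile on both arrays, with control signals of 954 to 5069 and high-glucose signals of 705.7 to 4065. Of 9 named enterocyte genes, 4 lay above the 90th percentile on each array and 2 below the 50th. Of the 4 bright ones, 3 are also known in liver: Apoa1, Apob and Slc2a2. The other was Fabp2, with signals of 455.3 and 557.9. The 6 listed Paneth cell genes were thus dim on both arrays, listed goblet cell and enterocyte genes were mixed and the listed liver genes bright. Which tissue the arrays hold was not tested.

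All 10 acinar genes had less signal under high glucose. Their relative log2 ratios had a median of -4.10, or 17.2-fold lower, with the bounds at their limit. All 10 passed 2-fold and 4-fold lower. Over all expressed probe sets 4.97% passed 2-fold lower and 0.84% passed 4-fold lower. Because the genes were chosen for these ratios, nothing is read from that contrast. As deposited, with no shift taken off, the median was -5.08, or 33.7-fold lower, against 47.8% of expressed probe sets past 2-fold lower. In RNA of a whole tissue, fewer cells of a type and less RNA per cell cannot be told apart.

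**Figure D1:**
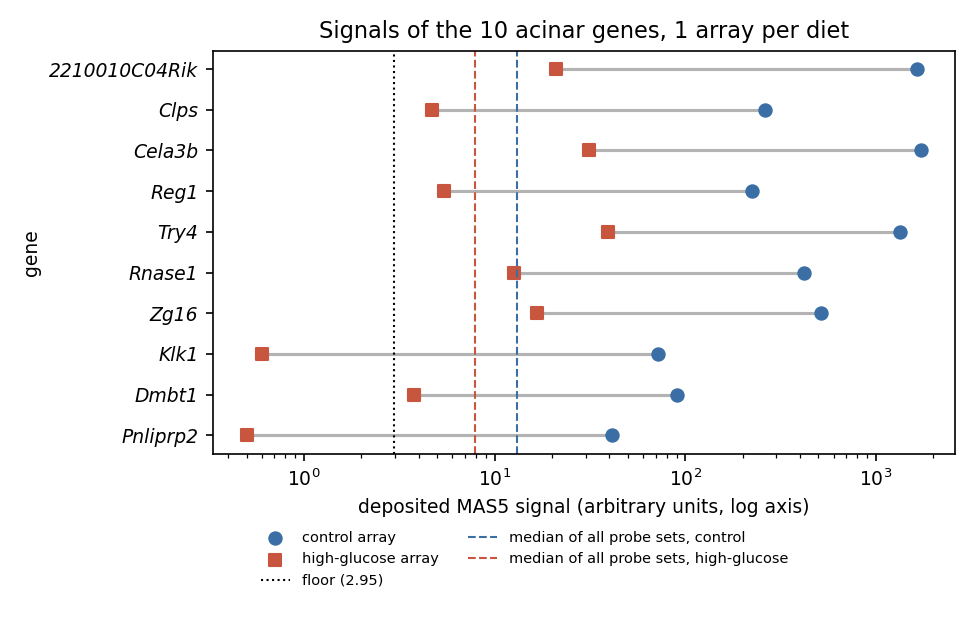
Deposited MAS5 signal on a log axis for each of the 10 genes on the control array (circles) and the high-glucose array (squares), ordered by relative log2 ratio, with the floor of 2.95 and the medians of all probe sets (13.1 and 7.9) as vertical lines. On the control array every gene lies between 41.1 and 1726, above the array's median; on the high-glucose array the genes lie between 0.5 and 39.3.

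The trypsin and elastase proteases cut dietary protein and, in the case of trypsin, activate the other enzymes. The signal of 2210010C04Rik was 1648 under control and 21.0 under high glucose. Its relative log2 ratio was -5.32, or 40.02-fold lower, and the signals as deposited were 78.5-fold apart. The elastase-type gene Cela3b (listed in the authors' deposited table under the older symbol Ela3) had signals of 1726 and 31.2, a relative log2 ratio of -4.82. These values placed Cela3b at or above 98.8% and 79.0% of the probe sets of the respective arrays.

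Trypsin 4 (Try4), a digestive trypsinogen on the same chromosome as 2210010C04Rik (chromosome 6), had signals of 1346 and 39.3. Its relative log2 ratio was -4.13, or 17.5-fold lower. It kept the highest high-glucose signal of the 10 genes, at the 82.0th percentile of that array. Trypsinogen genes are closely related copies of each other, and transcripts of unlisted copies could add to both trypsin probe sets. Tissue kallikrein Klk1, which releases kinins from kininogen, had signals of 71.8 and 0.6, the latter under the floor, and was lower by at least 12.4-fold once the shift was taken off. Cela3b, Klk1 and Zg16 were read by probe sets with the suffix x, Affymetrix's mark for probes that may bind other transcripts.

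The fat-digestion genes differed from each other in level but not in direction. Colipase (Clps), the cofactor that anchors pancreatic lipase to fat droplets covered with bile salts, had signals of 261.3 and 4.7, a relative log2 ratio of -4.83, or 28.4-fold lower. It went from the 92.4th percentile of the control array to the 36.9th of the high-glucose array. The lipase-related gene Pnliprp2, whose product splits galactolipids and triglycerides, had signals of 41.1 and 0.5 and was at least 7.10-fold lower. Pnliprp2 had the lowest signal of the 10 genes on each array, so its bound is the loosest.

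The remaining genes encode other secreted proteins. Ribonuclease Rnase1, which degrades RNA in the gut, had signals of 418.3 and 12.6, a relative log2 ratio of -4.08. The lectin Zg16 (listed in the authors' deposited table as 1810010M01Rik), found on the inner face of zymogen granules and in goblet cell mucus, had signals of 514.3 and 16.7, a relative log2 ratio of -3.97. Both were close in ratio, at 16.9-fold and 15.7-fold lower.

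Reg1, a small C-type lectin of pancreatic juice, had signals of 223.8 and 5.4, a relative log2 ratio of -4.40. Dmbt1, a large scavenger receptor glycoprotein of mucosal surfaces, had signals of 90.7 and 3.8, a relative log2 ratio of -3.61. Reg1 was thus lower by 21.1-fold and Dmbt1 by 12.2-fold relative to the shift, and both lay below the median of the high-glucose array.

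Among the 8 genes measured above the floor on both arrays, relative log2 ratios ran from -5.32 to -3.61, an SD across genes of 0.56 and a 3.29-fold span. The arrays repeat a ratio only where a gene has several probe sets. In 19 genes with an expressed pair, the ratios of the pair differed with an SD of 0.56. The order of 2210010C04Rik, Clps, Cela3b, Reg1, Try4, Rnase1, Zg16 and Dmbt1 is therefore a ranking in which neighbours lie within the difference seen between probe sets of one gene. The genes with the highest control signals were not uniformly those with the lowest ratios: Clps had a control signal of 261.3 and a ratio next to that of Cela3b at 1726.

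The 10 genes lay in a long lower tail of the array. Among the 11313 expressed probe sets, 34 had a relative log2 ratio at or below that of Dmbt1, and 9 of the 34 were acinar genes. The other 25 carry no gene name in the files, so no further named gene was among the 34. Control signals of the unnamed probe sets ran from 71.2 to 3225 with a median of 603.8, and high-glucose signals from 0.3 to 59.8 with a median of 12.1. The lowest of all was an unnamed probe set at -6.05, with signals of 519.1 and 4.0. In the opposite direction, 1 expressed probe set was as far above the shift.

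**Figure D2:**
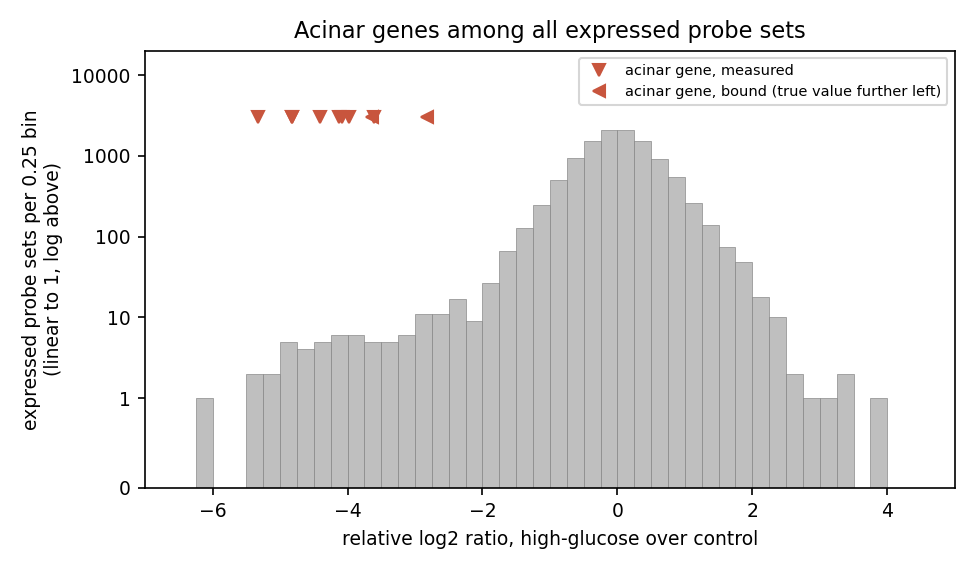
Number of expressed probe sets (vertical axis, linear to 1 and log above) in bins of relative log2 ratio of high-glucose over control (horizontal axis), with the 10 acinar genes as red triangles above the bars; left-pointing triangles are the bounds of Klk1 and Pnliprp2. The genes sit between -5.32 and -2.83, in a lower tail that the upper side of the distribution does not mirror.

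The named genes nearest in ratio, out of 1067 named genes that counted as expressed, were also the lowest after the acinar genes. Likeness here is the difference from the acinar median of -4.10 in relative log2 ratio, over 1 pair of arrays. Nabp2, a single-stranded DNA binding protein gene, was nearest at a bound of -2.45, from signals of 31.7 and 1.2. The cholesterol synthesis genes Fdps, Msmo1 and Sqle followed at -2.45, -2.35 and -2.25, and the acute-phase gene Saa1 at -2.18. Fdps had a control signal of 522.5 and a high-glucose signal of 48.8. Pnliprp2, the acinar gene nearest to them, was at a bound of -2.83, so no named gene outside the 10 had a value as low as any acinar gene. The true value of Nabp2 may, however, lie below its bound. The 10 were chosen for low ratios, so nothing is read from this gap. It also covers named genes only, and 25 unnamed probe sets lay at or below Dmbt1.

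Lists of other acinar and neighbouring cell type genes were then examined, chosen with earlier results of these data known. Of 63 acinar genes on 5 lists, 13 are named in the files, 11 counted as expressed and 10 passed 2-fold lower in relative ratio, against 5.34% of expressed named genes. Those 10 are the genes described above. The list median was -4.08, against 0 over all expressed probe sets by construction. On the control array 7 of the 13 lay above the 90th percentile, and on the high-glucose array 0 did. Because 10 of the 13 were chosen for their ratios on these arrays, nothing is read from the share, the median or these counts.

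Of the other 3 named acinar genes only Gata6 was measured above the floor on both arrays. Gata6, a zinc finger transcription factor of acinar and gut epithelial cells, had signals of 25 and 8.8, and its relative log2 ratio was -0.53; as deposited it was at -1.51, past 2-fold lower like 47.8% of expressed probe sets. The protease gene Prss3, read by a probe set shared between transcripts, had signals of 6.2 and 1.7, the latter under the floor, and did not count as expressed. The nuclease gene Dnase1 lay under the floor on both arrays, at 1.2 and 0.7, so neither Prss3 nor Dnase1 was bright enough to show a difference of the size seen in the 10 genes.

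Other pancreatic cell types were barely covered by named genes. Of 14 islet genes 2 are named: the insulin gene Ins1 had signals of 14.7 and 6.3, a relative log2 ratio of -0.25, and the granule protein gene Chgb was under the floor on both arrays, at 0.6 and 1.0. Of 9 duct genes only Aqp1 is named, a water channel also found in vessels, whose relative log2 ratio was 0.44 from signals of 86.6 and 60.0. Whether the amount of pancreatic tissue differed between the samples was not tested.

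Zg16 differed from the other goblet cell gene that counted as expressed, the trefoil peptide gene Tff3, whose signals of 50.4 and 25.7 put it at the shift with a relative log2 ratio of 0.00. Genes of the endoplasmic reticulum that serve secretion were examined because acinar cells are rich in it, although most cells use them. Of 19 such genes on a chosen list, 4 are named and expressed. All 4 lay below the shift and 0 of 4 passed 2-fold. The lectin chaperone gene Calr and the translocon-associated Ssr1 were both at -0.82. The co-chaperone gene Dnajc3 was at -0.80 and the degradation factor gene Herpud1 at -0.60. Named genes of this compartment left off the list lay on both sides of the shift, such as Sec61g at 0.32 and Dnajb11 at -0.06. No shared direction is therefore read from the list. The 4 liver genes ranged from -0.02 to 0.65 and the 7 expressed enterocyte genes from -0.51 to 1.26, and 0 of these 11 were 2-fold lower. Over all expressed probe sets 4.97% passed 2-fold lower, so counts of 0 in lists this small are not read as a difference. Of the enterocyte genes 1, Fabp2, was past 2-fold higher, as were 557 of the 11313 expressed probe sets.

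**Figure D3:**
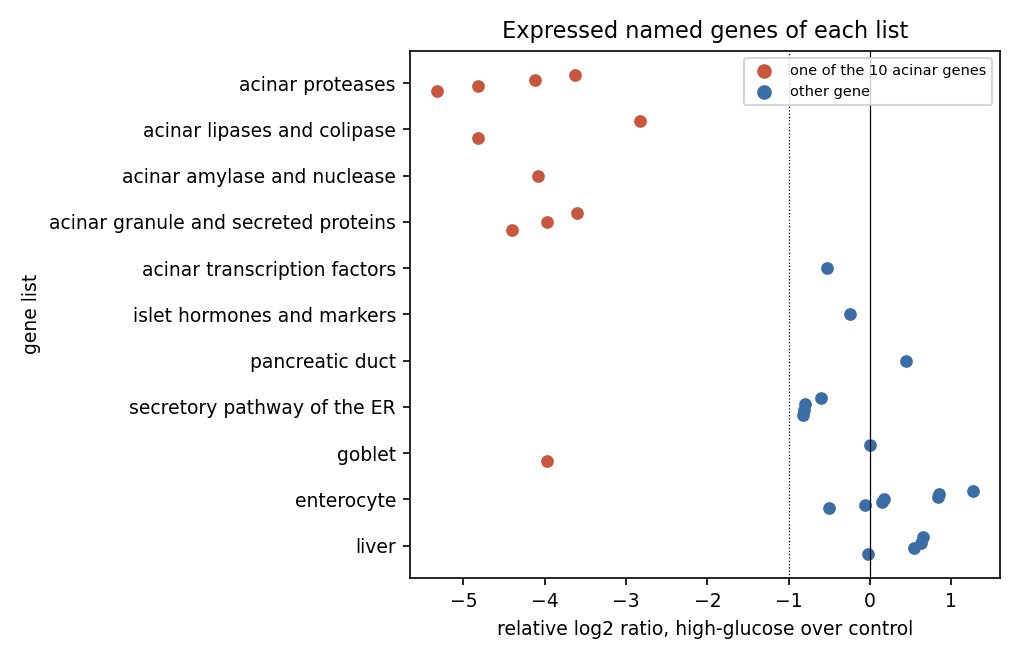
Relative log2 ratio of high-glucose over control for each expressed named gene of each list, with the 10 acinar genes in red, other genes in blue, a solid line at the shift (0) and a dotted line at 2-fold lower (-1). Zg16 appears on both the granule and the goblet list, Klk1 and Pnliprp2 are bounds, and no gene outside the 10 passes the dotted line.

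The authors' deposited table, in which they compared the diets themselves, gave a different account of the same genes through an SLR, a signal log ratio in log2 of high glucose against control, for 1625 selected probe sets. The 10 acinar genes split evenly in the authors' deposited table, 5 with a positive SLR and 5 with a negative one, from -1.3 to 1.5 with a median of 0.05. In the authors' deposited table as a whole, 64% of probe sets had a negative SLR and 36% a positive one. How the authors selected probe sets, and which arrays gave the SLR, is not stated in these sources.

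By role, both fat-digestion genes were positive in the authors' deposited table, Pnliprp2 at 1.5 and Clps at 1.2, with 18.1% of its probe sets at or above 1. The trypsin family and elastase genes were negative in the authors' deposited table, Try4 at -1.3, 2210010C04Rik at -1.0 and Cela3b at -0.8. Of the 10 genes, 2 were at or below -1 in the authors' deposited table, where 9.85% of probe sets were. Klk1 and Rnase1 were each at 0.6 and Zg16 at 0.5 in the authors' deposited table, while Reg1 was at -0.9 and Dmbt1 at -0.4. Prss3 and Ins1, which were dim on the signal arrays, had positive SLRs of 2.6 and 3.8 in the authors' deposited table.

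The sources could not be reconciled from the files. For Clps the SLR of 1.2 in the authors' deposited table stands against a log2 ratio of -5.80 in the signals as deposited. For Try4, which is lower in both, the SLR of -1.3 in the authors' deposited table stands against -5.10. The sign of the SLR matched that of the relative log2 ratio for 5 of the 10 genes, and for 645 of the 1110 expressed probe sets in the authors' deposited table (58.1%). No gene of the 10 differed by as much in the authors' deposited table as in the signals.

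**Figure D4:**
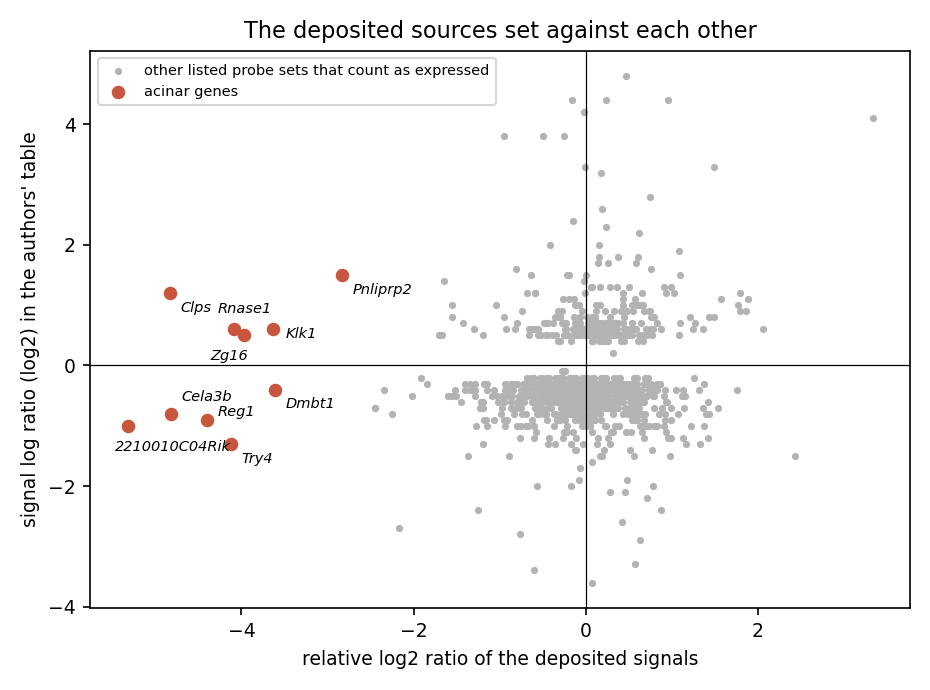
SLR in the authors' deposited table (vertical axis, log2) against the relative log2 ratio of the deposited signals (horizontal axis) for the 1110 listed probe sets that counted as expressed, with the 10 acinar genes in red. The acinar genes lie at the left edge, 5 above and 5 below an SLR of 0.

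The acinar genes stayed lower on the high-glucose array under other settings of the signals. Under 12 other scalings, floors, filters or choices of probe set, 109 values of a single gene were obtained, and all 109 were at least 2-fold lower. A gene left out under a setting gave no value there. Nothing is read from that count, because the genes were chosen for low ratios on these signals. The exception to a 4-fold lower value was the bound of Pnliprp2, at -1.60, with the floor at the 40th percentile. The size did depend on the scaling: 2210010C04Rik ran from -6.41 with arrays scaled to the hybridisation spikes to -5.27, and Dmbt1 from -4.70 to a bound of -2.74 with the floor at the 40th percentile.

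**Figure D5:**
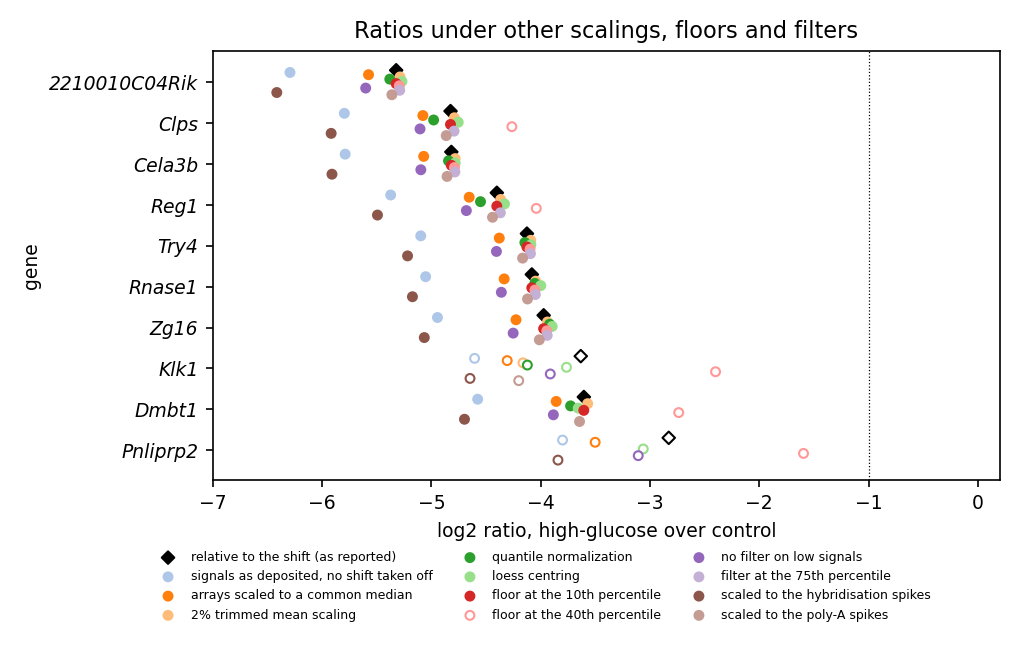
Log2 ratio of high-glucose over control (horizontal axis) for each gene under the reported setting (black diamonds) and 11 other scalings, floors and filters (coloured circles); open symbols are bounds and the dotted line is 2-fold lower (-1). A circle is missing where a gene did not count as expressed under that setting; all values lie left of the dotted line.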

How the data were processed

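Jejunum RNA of mice on each of 2 diets was read on 1 array per diet. Of the RNA, 6 ug was labelled with biotin, per the labels' protocols. The authors deposited intensity values (MAS5 signals), according to the submitters' processing notes, without a version; scaling target and array design were not found there. The authors also deposited a table of log2 signal log ratios (SLR) in steps of 0.1 for 1625 probe sets, whose fold column was not used. Gene names came from that table, 8 of the 10 as current symbols and 2 through a synonym in RefSeq's GRCm38.p6 annotation. A gene absent from it is unnamed here.

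Log2 ratios were computed with Python 3.11.15, numpy 2.4.6 and pandas 2.3.3, each gene by its brightest probe set, relative to the median of expressed probe sets. Loess (span 0.4) used statsmodels 0.14.6. The procedure was tested on simulated data. The 10 genes, lists, motifs and tests were chosen with earlier results of these data known. Named were the 10 genes, all named acinar genes, the 5 nearest and 5 lowest other genes, and examples from each marker list. Sec61g, Dnajb11 and Defcr-rs10 were named although they are on no list. These genes, examples beyond the brightest of a list, and the unnamed probe set were chosen after values were seen. The number of arrays limits the precision. Alternatives were 5 scalings, 2 floors, 2 filters, 2 thresholds, leaving out probe sets with suffix x or s, and the SLR; scaling to spikes was added after seeing the data.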

Additional observations from a re-analysis of the deposited data

How the results depend on the processing

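No paired analysis was possible because each diet has 1 array, and no array could be left out. The count of 10 acinar genes past 2-fold lower was between 7 and 10 under all settings of the signals, each time all that were kept. The 1.5-fold and 4-fold thresholds gave 10. Because the genes were chosen for low ratios, nothing is read from these counts. Fewer genes were counted under filters that removed dim genes, to 7 at the 75th percentile, and 7 without probe sets of suffix x or s. The median of -4.10 over the 10 genes, and of -4.08 over the acinar lists, was -5.08 and -5.05 for signals as deposited and -5.20 and -5.17 when scaled to the 18 hybridisation spikes, RNAs added just before hybridisation, whose own median log2 ratio was 0.12. The other settings of the signals moved these medians by less than the SD of 0.56 between probe sets of one gene. The 24 poly-A spikes had a median log2 ratio of -0.93, near the shift of -0.97. When SLRs from the authors' deposited table were used, the count was 2 for the 10 genes and 2 for the lists, the medians were 0.05 and 0.5, and Clps (1.2), Pnliprp2 (1.5), Klk1 (0.6), Rnase1 (0.6) and Zg16 (0.5) were positive; the cause was not tested. Signals under the floor limit Klk1 and Pnliprp2 to bounds.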
